A study of Mus musculus with 6 samples.

Results

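The BCL2 family decides whether a cell under stress keeps its mitochondria intact or dies by apoptosis. Transcripts of 10 of its genes, among the 52636 genes of the count table, were compared between 2 mouse mammary tumour cell lines. The genes were taken by name from a list of family members, and each of the 10 was found once in the table. They are the pro-survival genes Bcl2, Bcl2l1, Bcl2l2 and Mcl1, the effector gene Bak1, and the BH3-only genes Bcl2l11, Bid, Bad, Bik and Bmf.

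The libraries labelled J110 (n = 3) come from a cell line derived from transgenic mice in which the MMTV LTR drives AIB1 cDNA. Those labelled SSM3 (n = 3) come from a line generated from mammary tumours of 129SvEv mice. All were cells grown in culture without treatment, and their transcripts were sequenced from the 3′ ends. The lines were kept with different medium supplements, serum concentrations and CO2, and each genotype is represented by 1 line, so line, strain, genotype and culture cannot be told apart. J110 and SSM3 below are the labels of the libraries, and every direction rests on them.

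Pro-survival proteins of the family hold the effectors BAK and BAX in check at the outer mitochondrial membrane. BH3-only proteins are the sensors. They are made or activated under stress, bind into a groove of the pro-survival proteins, and so release BAK and BAX, which then permeabilise the membrane and let cytochrome c out to start the caspases. In the mammary gland the family is known for the death of milk-producing cells at involution and for clearing the lumen of ducts, and BCL2 is widely used as a marker of hormone receptor positive breast cancer.

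Libraries held from 4200785 to 5416305 counts. The 3 libraries of a line correlated across all genes tested between 0.984 and 0.990 on the log2 CPM scale, and libraries of different lines between 0.578 and 0.603. Ncoa3, which encodes AIB1, had 110, 106 and 102 counts in J110 and 181, 199 and 186 in SSM3, so it was not higher in the line with the transgene. The 3′ end of the transgene is not given in the sources used here. Reads from a 3′ end show nothing about a cDNA with another 3′ end, so these counts cannot check the J110 label. Of 6 epithelial markers, Krt8 and Krt18 were abundant in both lines, while Epcam had 2, 1 and 7 counts in J110 and from 2376 to 2412 in SSM3. Of the markers of other cell types, 6 of 7 for leukocytes were at 3 counts or fewer in all libraries of each line, as were 3 of 6 for fibroblasts and 2 of 5 for endothelium in J110 and 4 of 6 and 5 of 5 in SSM3. Summed over its list, fibroblast markers reached from 1.54 to 4.38 CPM in J110 and from 1336 to 1480 in SSM3, where Dcn made up nearly all of it, and endothelial markers from 158 to 181 and from 0 to 0.425 CPM, with Cdh5 the main one in J110. Their part in any result was not tested, and in such bulk samples fewer cells with a transcript and less of it per cell cannot be told apart.

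Of the 10 BCL2 family genes, 5 were higher in SSM3, 2 were lower and 3 did not pass the test, at a Benjamini-Hochberg adjusted p below 0.05 in the quasi-likelihood test of edgeR over 12284 genes, which gives every adjusted p below unless another tool is named. Among all genes tested 77.9% were called, 38.6% as higher and 39.2% as lower, so 7 of 10 is close to the background. The 4 genes called with a change of at least 2-fold, Bcl2l11, Bad, Bik and Bmf, were all BH3-only genes and all higher in SSM3. Of all genes tested 43.7% were called with such a change, 21.2% as higher and 22.5% as lower. The 4 pro-survival genes, Bak1 and Bid differed by less than 0.5 on the log2 scale. The median log2 fold change, SSM3 against J110, was 0.28 over the family and -0.01 over all genes tested, and the median of its absolute size was 0.48 against 0.84. All 10 genes passed the filter on low counts, Bik and Bmf only through their SSM3 libraries. Scaling by library size only left 6 of the 10 called, 5 higher and 1 lower, where it called 5373 of 12284 genes as higher and 4140 as lower. Requiring 10 counts in every library removed Bik and Bmf and left 3 of 8 higher and 3 lower, where 3679 of 9686 genes were called as higher and 3609 as lower.

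**Figure D1:**
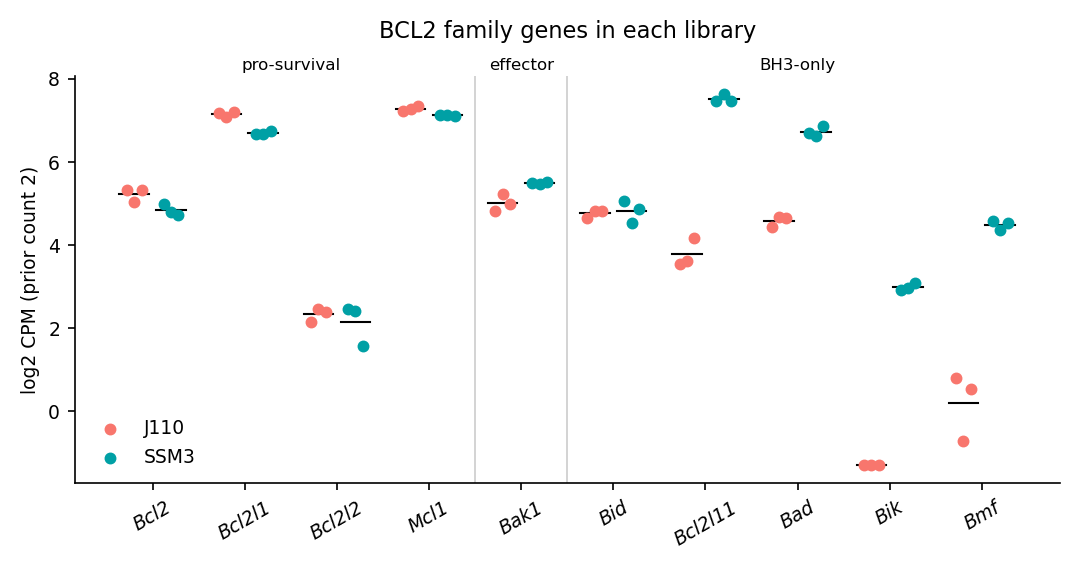
Level of each BCL2 family gene in each library, in log2 CPM with a prior count of 2, on the vertical axis, with J110 libraries in red, SSM3 libraries in teal and a black line at the mean of each line. The Bcl2l11, Bad, Bik and Bmf libraries labelled SSM3 sit clear above those labelled J110, while the pro-survival genes differ little.

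The 5′ sequences of the 3 members that rose most among those with a window are shown here beside that of Bcl2l1, a pro-survival member that moved the other way. Each is the RefSeq window of GRCm38.p6 from 250 bases before to 50 after the annotated start nearest to the start of the gene, written 5′ to 3′ on the strand of the gene. It is the reference sequence, not that of either cell line. Capitals mark matches on either strand to GTAAACA, the core site of FOXO factors, and to GGTCA, the half-site of the estrogen response element. The windows are chr2:128125788-128126087 on the forward strand for Bcl2l11, chr2:118549637-118549936 on the reverse strand for Bmf, chr19:6941611-6941910 on the forward strand for Bad and chr2:152831679-152831978 on the reverse strand for Bcl2l1.
Bcl2l11: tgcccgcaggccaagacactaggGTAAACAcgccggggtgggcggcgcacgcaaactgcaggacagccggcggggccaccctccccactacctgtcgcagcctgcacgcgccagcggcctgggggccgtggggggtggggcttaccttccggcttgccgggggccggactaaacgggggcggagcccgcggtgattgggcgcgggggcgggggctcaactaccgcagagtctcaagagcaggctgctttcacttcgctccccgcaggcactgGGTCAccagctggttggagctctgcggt
Bmf: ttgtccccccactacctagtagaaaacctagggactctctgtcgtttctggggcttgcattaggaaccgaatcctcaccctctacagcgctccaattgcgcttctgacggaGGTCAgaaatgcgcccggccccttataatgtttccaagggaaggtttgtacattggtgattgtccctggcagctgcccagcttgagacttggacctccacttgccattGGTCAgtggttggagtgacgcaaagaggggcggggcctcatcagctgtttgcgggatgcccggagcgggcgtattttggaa
Bad: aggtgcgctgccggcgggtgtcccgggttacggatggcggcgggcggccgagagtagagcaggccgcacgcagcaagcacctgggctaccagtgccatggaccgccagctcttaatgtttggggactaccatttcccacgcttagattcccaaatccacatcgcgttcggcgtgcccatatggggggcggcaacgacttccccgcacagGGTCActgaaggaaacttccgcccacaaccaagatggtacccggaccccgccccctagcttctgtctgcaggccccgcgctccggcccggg
Bcl2l1: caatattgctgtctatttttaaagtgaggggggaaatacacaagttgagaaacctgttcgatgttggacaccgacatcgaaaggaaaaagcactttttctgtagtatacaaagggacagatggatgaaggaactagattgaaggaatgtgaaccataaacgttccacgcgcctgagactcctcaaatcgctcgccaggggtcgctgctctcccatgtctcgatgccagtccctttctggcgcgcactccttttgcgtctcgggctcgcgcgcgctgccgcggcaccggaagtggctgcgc

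A window was found for 9 of the 10 genes, all but Bik. GTAAACA or its reverse complement TGTTTAC occurred in the window of 1 of them, Bcl2l11, from 227 to 221 bases before the start, and in 3.65% of all 32851 windows. GGTCA or TGACC occurred in 5 of 9, which were Bcl2l2, Bak1, Bcl2l11, Bad and Bmf, and in 40.5% of all windows. The GC box GGGCGG or CCGCCC occurred in 7 of 9 and in 35.7% of all windows, and neither the cyclic AMP response element TGACGTCA nor the E-box CACGTG occurred in any of the 9, against 1.79% and 7.15% of all windows. These counts use 1 window a gene, while Bcl2l1 and Bmf have 3 each and Bcl2l11 and Bad 2 each. Of the other windows, 1 of Bcl2l1 held 3 matches to GGTCA or TGACC and 1 held none, that of Bad held 2, that of Bcl2l11 held 1 and those of Bmf held none. None of these 5 motifs contains another. GC content ran from 52.3% to 76.0% in the 9 windows, with a median of 52.7% over all windows. These matches describe letters of the reference and say nothing about binding in either line.

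The BH3-only gene Bcl2l11 (ENSMUSG00000027381, chromosome 2 of mm10 from 128126038 to 128162547, forward strand) encodes BIM, a potent activator that binds every pro-survival member of the family. It had 59, 60 and 84 counts in J110 and 790, 931 and 894 in SSM3. Every SSM3 library lay far above every J110 library. In CPM the means were 13.6 ± 3.42 (SD, n = 3) and 184 ± 12.1 (SD, n = 3). SSM3 exceeded J110 by 3.76 in log2 fold change (standard error, SE, 0.13, edgeR adjusted p = 1.34e-13). J110 replicate 3 was the highest of its line for Bcl2l11 and also held the most counts on Epcam, Dcn and Krt19, genes abundant in SSM3. In that library Epcam, Dcn and Krt19 stood at 0.288%, 0.177% and 0.403% of their SSM3 mean and Bcl2l11 at 9.53%, and without it the log2 fold change of Bcl2l11 was 3.97.

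Bad (ENSMUSG00000024959, chromosome 19 from 6941861 to 6951899, forward strand) encodes a sensitiser that binds BCL2, BCL-XL and BCL-W, and that growth factor kinases keep inactive by phosphorylation. Its counts were 110, 127 and 118 in J110 and 463, 463 and 582 in SSM3. All SSM3 libraries lay above all J110 libraries, at 106 ± 9.04 against 23.6 ± 2.13 CPM (SD, n = 3 each). The rise was 2.16 in log2 fold change (SE 0.11, edgeR adjusted p = 1.18e-11). Bad shares 524 exon bases with Gpr137 on the opposite strand, outside the 500 exon bases at its 3′ end, and Gpr137 had from 19 to 27 counts in J110 and from 72 to 82 in SSM3.

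Bmf (ENSMUSG00000040093, chromosome 2 from 118528757 to 118549687, reverse strand) encodes a BH3-only protein known for the death of cells that lose contact with their matrix. It was close to absent from J110, with 7, 1 and 5 counts, and had 105, 95 and 115 counts in SSM3. The means were 0.864 ± 0.597 and 22.1 ± 1.73 CPM (SD, n = 3 each). The rise was 4.64 in log2 fold change (SE 0.31, edgeR adjusted p = 6.20e-10), and from 4.16 to 5.11 when each library was left out in turn. The few J110 counts decide that spread, since leaving out J110 replicate 2, with its single count, gave the lowest value and leaving out J110 replicate 1 the highest.

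Bik (ENSMUSG00000016758, chromosome 15 from 83526862 to 83544634, forward strand) encodes a BH3-only protein of the endoplasmic reticulum. No read was counted on it in any J110 library, and SSM3 libraries held 32, 35 and 41. A floor of 3 counts per library corresponds to 0.578 to 0.626 CPM in J110, which covers counting error only, and against the highest floor the SSM3 mean of 7.57 ± 0.530 CPM (SD, n = 3) was at least 12.1-fold higher (edgeR adjusted p = 3.30e-08). The 2 genes whose 6 log2 CPM values lay nearest to those of Bik were Rimbp2 and Defb45, at Euclidean distances of 0.17 and 0.24. Neither was counted in J110, and their means in SSM3 were 7.36 and 8.26 CPM. For Bcl2l1, the member with the largest fall in the main test, the nearest were Pfdn1 and Afdn, at distances of 0.16 and 0.18. Without SSM3 replicate 1 Bcl2 fell more than Bcl2l1, at -0.48 against -0.46 in log2 fold change.

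Bid (ENSMUSG00000004446, chromosome 6 from 120891930 to 120916853, reverse strand), which links death receptors to mitochondria once caspase-8 has cut it, was the BH3-only member with no detected difference. It had 128, 141 and 133 counts in J110 and 148, 108 and 145 in SSM3, and the lines overlapped. The line means differed by 0.08 in log2 fold change (SE 0.14, edgeR adjusted p = 0.633). All of the 500 exon bases at its 3′ end also belong to Bcl2l13 on the opposite strand, which had from 138 to 225 counts, so the Bid value is uncertain in either direction.

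**Figure D2:**
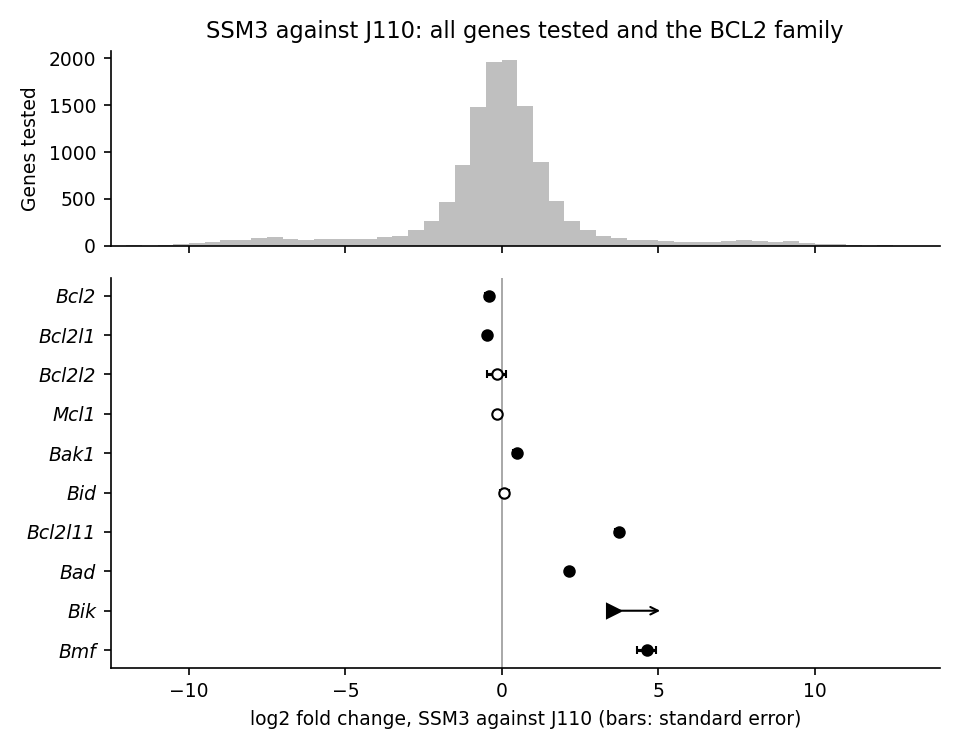
The lower panel plots the log2 fold change, SSM3 against J110, of each BCL2 family gene with its SE, filled where the adjusted p was below 0.05, and the upper panel counts all 12284 genes tested over the same axis. Bik is drawn as an arrow from its lower bound, and Bcl2l11, Bad and Bmf lie from 2.16 to 4.64 while the remaining genes lie within 0.5 of 0.

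On the pro-survival side the differences were small and no log2 fold change was above 0 in the edgeR test, while with library size only Bcl2l2 and Mcl1 stood at 0.014 and 0.021. Bcl2l1 (ENSMUSG00000007659, chromosome 2 from 152780668 to 152831728, reverse strand) encodes BCL-XL, which protects many epithelial cells. It had 756, 689 and 708 counts in J110 and 455, 477 and 535 in SSM3, or 143 ± 6.12 and 103 ± 2.97 CPM (SD, n = 3 each). The lines did not overlap, and Bcl2l1 was lower in SSM3 at -0.48 in log2 fold change (SE 0.079, edgeR adjusted p = 3.88e-05).

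Bcl2 (ENSMUSG00000057329, chromosome 1 from 106538178 to 106714274, reverse strand), the founder of the family, had 205, 165 and 191 counts in J110 and 141, 129 and 130 in SSM3. At 37.3 ± 4.08 and 28.2 ± 2.86 CPM (SD, n = 3 each) it was also lower in SSM3, at -0.41 in log2 fold change (SE 0.13, edgeR adjusted p = 0.00836). That call was lost with library size only (-0.23, adjusted p = 0.116) and without both J110 replicate 3 and SSM3 replicate 2 (-0.33, adjusted p = 0.102). Over the alternatives the adjusted p went from 0.00456 to 1, the latter from glmTreat, which asks for more than a 2-fold change. Bcl2 shares 558 exon bases with the antisense gene D630008O14Rik, outside its 3′ end, and that gene had from 5 to 15 counts.

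Mcl1 (ENSMUSG00000038612, chromosome 3 from 95658788 to 95663176, forward strand) encodes a short-lived pro-survival protein on which mammary epithelium depends. Its counts were 777, 780 and 774 in J110 and 628, 662 and 691 in SSM3. Although the CPM values of the lines did not overlap, at 155 ± 5.91 and 139 ± 1.61 (SD, n = 3 each), the log2 fold change of -0.16 (SE 0.075) did not pass the test (edgeR adjusted p = 0.0681). Limma-voom gave an adjusted p of 0.0485 and a filter of 10 counts in every library 0.0408, library size only turned the log2 fold change to 0.021, and adjusted p went from 0.0408 to 1 over the alternatives, the latter again from glmTreat. Among all genes tested, the libraries of the lines did not overlap for 79.6%, and among the 10 family genes for 8.

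Bcl2l2 (ENSMUSG00000089682, chromosome 14 from 54883377 to 54888234, forward strand), which encodes BCL-W, was counted at 21, 26 and 23 in J110 and 23, 23 and 13 in SSM3. The lines overlapped, and at this depth no difference was detectable (log2 fold change -0.16, SE 0.29, edgeR adjusted p = 0.625). It shares 594 exon bases with Gm20521 on the same strand, outside the 500 exon bases at its 3′ end. Gm20521 had from 1372 to 2245 counts, so any reads from the shared exons may have gone to either gene and the Bcl2l2 value is uncertain.

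The effector Bak1 (ENSMUSG00000057789, chromosome 17 from 27019810 to 27029009, reverse strand) encodes BAK, which sits in the outer mitochondrial membrane and forms its pores. It had 145, 187 and 151 counts in J110 and 201, 207 and 229 in SSM3. The libraries of the lines did not overlap, at 32.1 ± 4.55 and 44.8 ± 0.805 CPM (SD, n = 3 each), and Bak1 rose by 0.48 in log2 fold change (SE 0.12, edgeR adjusted p = 0.00146). Ggnbp1 on the opposite strand shares 437 exon bases with Bak1, outside its 3′ end, and had from 25 to 32 counts in J110 and from 76 to 116 in SSM3.

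Ratios of 2 genes within a library need no scaling between libraries, and a change in a ratio between the lines does not depend on transcript length. The count ratio of Bcl2l11 to Mcl1 was 0.0759, 0.0769 and 0.109 in J110 and 1.26, 1.41 and 1.29 in SSM3. Its mean log2 ratio was higher in SSM3 by 3.94, which corresponds to 15.3-fold. On the same scale the ratio to Bcl2l1 was 19.2-fold higher in SSM3 for Bcl2l11 and 6.22-fold higher for Bad. For Bmf to Bcl2l1 it was 0.00926, 0.00145 and 0.00706 in J110 and 0.231, 0.199 and 0.215 in SSM3, and no fold is given, since J110 replicate 2 holds a single Bmf count. The Bcl2l1 to Mcl1 ratio was lower in SSM3, at 0.740 ± 0.030 against 0.924 ± 0.045 (SD, n = 3 each). The ratio of Bcl2 to Bcl2l1 overlapped between the lines, at 0.274 ± 0.034 in SSM3 and 0.260 ± 0.018 in J110 (SD, n = 3 each). Of 8 ratios computed, 7 did not overlap between the lines (two-sided exact test over permutations, p = 0.1, which is the least that 3 against 3 libraries can give, 0.114 after Benjamini-Hochberg adjustment), and the same exact test gave p = 0.5 for Bcl2 to Bcl2l1. The ratios were chosen after the values were seen and restate the counts of the single genes, so they are not further evidence. Among all single genes tested 79.6% did not overlap, and no such share was computed for ratios.

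**Figure D3:**
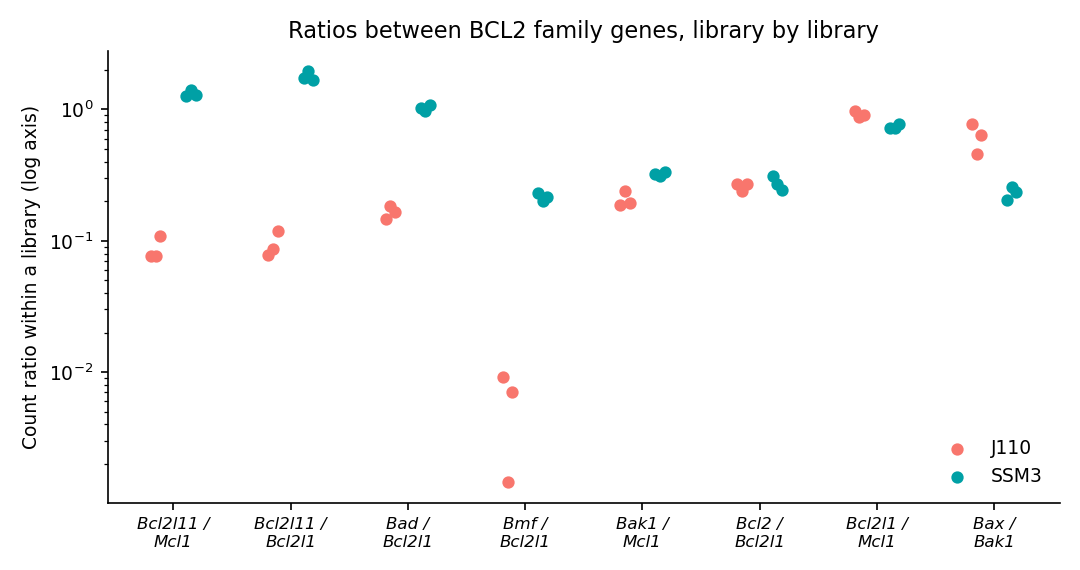
Count ratio of the first to the second gene of each pair in each library, on a log axis, with J110 libraries in red and SSM3 libraries in teal. Ratios of Bcl2l11, Bad and Bmf to a pro-survival gene are higher in every SSM3 library, the Bcl2 to Bcl2l1 ratio overlaps, and the Bax to Bak1 ratio is lower in SSM3.

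Of 18 other genes of the family listed, 13 were tested, 3 were higher and 7 lower in SSM3 and 3 did not pass. Among all genes 77.9% were called, so 10 of 13 is close to the background. The list had a median log2 fold change of -0.48. Of the BH3-only genes among them, Pmaip1, which encodes NOXA, the sensitiser that binds MCL1, had 104, 113 and 127 counts in J110 and none in SSM3, at least 34.4-fold lower (edgeR adjusted p = 3.25e-10). Its direction was thus opposite to that of Bcl2l11, Bad, Bik and Bmf. Bbc3, which encodes PUMA, did not pass, at -0.24 in log2 fold change (SE 0.15, edgeR adjusted p = 0.148). Hrk was not tested, with no count in J110 and 7, 7 and 8 in SSM3.

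The effectors other than Bak1 were both lower in SSM3. Bax had 113, 85 and 97 counts in J110 and 41, 53 and 54 in SSM3, or -0.91 in log2 fold change (SE 0.17, edgeR adjusted p = 0.000117). The count ratio of Bax to Bak1 was 0.625 ± 0.16 in J110 and 0.232 ± 0.026 in SSM3 (SD, n = 3 each). Bok, which can permeabilise mitochondria without the other effectors, had 404, 363 and 375 counts in J110 and 15, 9 and 13 in SSM3, or -4.85 in log2 fold change (SE 0.16, adjusted p = 9.65e-14).

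Bnip3 and Bnip3l, relatives that mark mitochondria for autophagy, were lower in SSM3 by log2 fold changes of -2.26 and -2.35. Bnip3 had from 372 to 439 counts in J110 and from 69 to 90 in SSM3, and the antisense gene Gm45507, which shares 504 exon bases with it, from 329 to 395 and from 68 to 86, so their reads cannot be told apart. Bcl2l15 fell from 11.2 ± 1.04 to 0.340 ± 0.411 CPM (SD, n = 3 each), with a log2 fold change from -6.38 to -4.34 when single libraries were left out, and the steepest of these was without SSM3 replicate 3. It shares 569 exon bases with Gm43064, which had from 44 to 61 counts in J110 and from 2 to 7 in SSM3. In SSM3 Bcl2l14 was at least 22.7-fold higher and Bnipl at least 114-fold higher, and Gm128, which shares 328 exon bases at the 3′ end of Bnipl, had from 282 to 387 counts in SSM3 where Bnipl had from 288 to 390. Bcl2l13 was higher by 0.48 on the log2 scale, a call lost without SSM3 replicate 1 (0.30, adjusted p = 0.0527). Its adjusted p went from 0.000207 to 1 over the alternatives, the latter from glmTreat. Of the 500 exon bases at the 3′ end of Bcl2l13, 215 also belong to Bid, so its value may hold reads of Bid. Bcl2a1a, Bcl2a1b and Bcl2a1d had no count in any library.

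**Figure D4:**
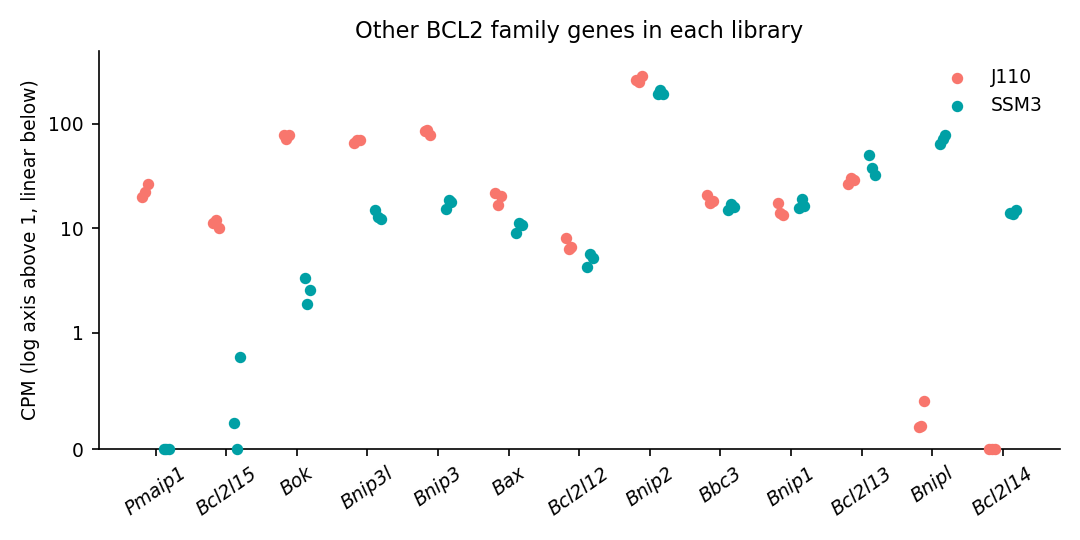
CPM of the 13 other BCL2 family genes tested in each library, on an axis that is logarithmic above 1 and linear below, with J110 libraries in red, SSM3 libraries in teal and genes ordered by log2 fold change. Pmaip1 is at 0 in all 3 SSM3 libraries and Bcl2l14 at 0 in all 3 J110 libraries, with Bok and Bnip3l next to Bcl2l15 among the genes lower in SSM3.

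Downstream of the mitochondria, 8 of 13 genes of caspases and the apoptosome that were tested were called, 5 higher and 3 lower in SSM3, against 77.9% of all genes, with a median log2 fold change of -0.01. Apaf1, the scaffold of the apoptosome, was lower at 4.96 ± 1.05 CPM in SSM3 against 26.6 ± 3.73 in J110 (SD, n = 3 each), or -2.43 in log2 fold change (SE 0.20, edgeR adjusted p = 7.82e-09). Casp6, Casp8 and Endog were higher by 0.53, 0.67 and 0.93 in log2 fold change. The Endog value is uncertain, since Spout1 on the opposite strand shares 379 of the 500 exon bases at its 3′ end and had more counts, from 166 to 229 in J110 and from 412 to 499 in SSM3. Casp9, the initiator that APAF1 activates, did not pass, at -0.20 in log2 fold change (SE 0.16, edgeR adjusted p = 0.269).

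Of 9 genes of the inhibitors of apoptosis and their antagonists that were tested, 4 were higher and 4 lower, where 38.6% and 39.2% of all genes were. Xiap, whose protein binds and blocks active caspases, fell from 59.1 ± 0.402 to 23.5 ± 1.59 CPM (SD, n = 3 each), or -1.33 in log2 fold change (edgeR adjusted p = 5.97e-09). Birc6 was lower by -0.75, and Birc5, which is bound up with cell division, was higher by 0.27. The antagonists of XIAP went both ways, with Htra2 at -1.33, Diablo at 0.67 and Xaf1 at 2.58 on the log2 fold change scale. The Htra2 value is uncertain, since all of the 500 exon bases at its 3′ end belong also to Loxl3, with from 279 to 337 counts in J110 and from 101 to 115 in SSM3.

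Among death receptor genes 4 of 9 tested were higher and 3 lower in SSM3, and 7 of 9 called is close to the 77.9% of all genes. Tnfsf10, the ligand TRAIL, had 0, 2 and 1 counts in J110 and 200, 210 and 236 in SSM3, at least 72.5-fold higher (edgeR adjusted p = 6.65e-13). Its receptor Tnfrsf10b went the other way, from 57.9 ± 4.81 to 13.7 ± 1.07 CPM (SD, n = 3 each), or -2.08 in log2 fold change (adjusted p = 1.92e-10). Tnfrsf1a and Tnfrsf21 were higher by 1.59 and 1.83 and the adaptor Fadd by 0.98, and Cflar, which blocks caspase-8 at the receptor, and Ripk1 were lower, at -1.17 and -0.59.

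The last list holds 27 genes whose products bind, phosphorylate or degrade the family's proteins, of which 12 were higher, 10 lower and 5 not called, so that 22 of 27 is close to the background of 77.9%. BIM and BMF can be held at the cytoskeleton by dynein light chains. Dynll2, the partner of BMF, was higher in SSM3 at 239 ± 2.24 against 109 ± 10.2 CPM (SD, n = 3 each, log2 fold change 1.13, edgeR adjusted p = 2.01e-09), and Dynll1 lower with a log2 fold change of -0.15 (adjusted p = 0.0388). The Dynll1 call was lost with library size only (0.021, adjusted p = 0.780), with the replicate number as a block (adjusted p = 0.0589), with a filter of 1 count and without any single library other than J110 replicate 3. Its adjusted p went from 0.0190 to 1 over the alternatives, the latter from glmTreat.

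For BAD, phosphorylation and binding to 14-3-3 proteins keep it away from mitochondria. Sfn, which encodes 14-3-3 sigma, had 48, 23 and 29 counts in J110 and 733, 860 and 916 in SSM3, or 4.72 in log2 fold change (SE 0.15, edgeR adjusted p = 5.61e-14). The Ywha genes listed, which encode other 14-3-3 proteins, lay from -0.29 to 0.27. Of the kinases listed, Akt1, Akt2, Pim2 and Rps6ka1 were higher, by 0.59, 1.85, 1.22 and 1.12, and Pim1 and Pim3 were lower, at -3.05 and -2.16. Pim2 had few counts, 25, 7 and 14 in J110 and 37, 22 and 43 in SSM3, and its libraries overlapped between the lines. Btrc, a ubiquitin ligase adaptor that can target BIM, was higher at 15.7 ± 3.51 against 3.68 ± 0.875 CPM (SD, n = 3 each). For MCL1, the deubiquitinase gene Usp9x was lower at -0.91, and the ligase genes Huwe1 and Fbxw7 at -0.42 and -0.62. Vdac2, which brings BAK to the membrane, was lower at -0.48, and Vdac1 and Vdac3 were higher by 0.45 and 1.11.

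**Figure D5:**
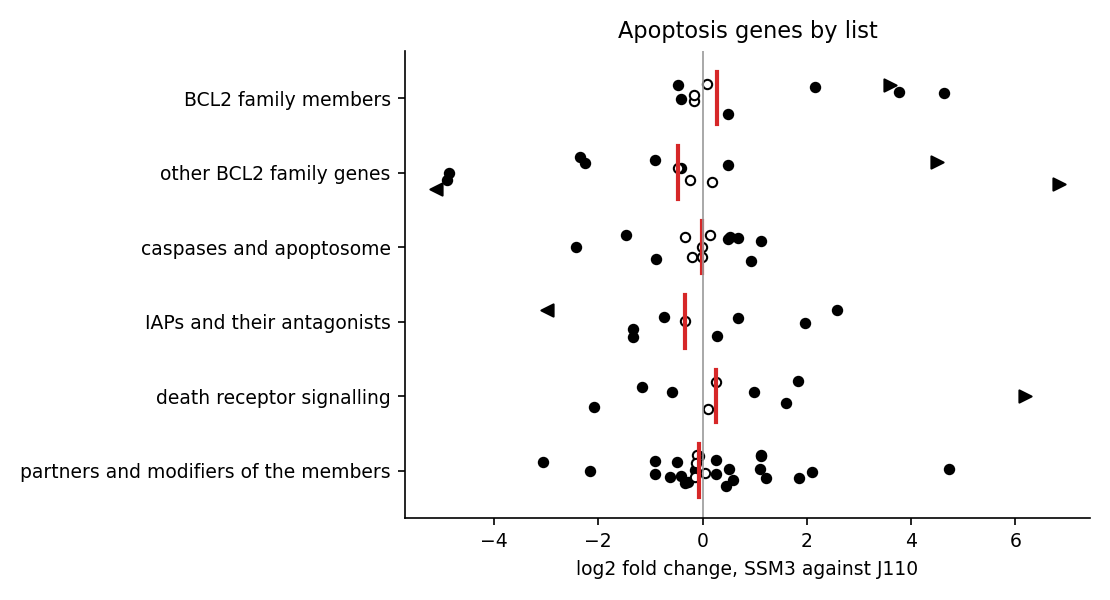
Log2 fold change, SSM3 against J110, of each gene tested in the family and in the 5 further lists, filled where the adjusted p was below 0.05, with triangles at the lower bound of genes at the floor in a line and a red bar at the median of each list. Medians lie from -0.48 for the other BCL2 family genes to 0.28 for the 10 family members. Of those members 4 were called higher by at least 2-fold, while of the other BCL2 family genes 2 were, and 5 were lower by as much.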

How the data were processed

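RNA of 3 libraries labelled J110 and 3 labelled SSM3 was prepared with the QuantSeq 3′ kit. Per the labels and the methods, the authors trimmed reads with cutadapt 2.1, mapped them to mm10 with HISAT2 2.0.4 and deposited raw counts per Ensembl gene from featureCounts of Subread 2.0.0. The strand setting and the treatment of reads on several genes are not given in the sources used here. Genes that share a 3′ end had nearly equal counts in several pairs, on opposite strands (Bnip3 and Gm45507, Htra2 and Loxl3) and on the same strand (Bnipl and Gm128), so a read may have been counted on both genes, and values of genes with shared exons may hold reads of either. Symbols and coordinates came from GENCODE M21 (GRCm38, the assembly of mm10), which named 52489 of 52636 identifiers (99.7%), and all 124 listed genes matched. Promoter windows are those of RefSeq (GRCm38.p6).

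The main test was the quasi-likelihood test of edgeR 4.0.16 in R 4.3.3, after filterByExpr and TMM, with Benjamini-Hochberg adjustment over 12284 genes and a threshold of 0.05. The standard error (SE) is the log2 fold change divided by the square root of F. DESeq2 1.42.0 and limma-voom (limma 3.58.1) were alternatives. Where no library of a line exceeded 3 counts, the floor, the fold change is given as a bound. One count is worth from 0.193 to 0.223 CPM. The script was tested on simulated counts in which 200 of 12284 genes were changed, by 2-fold or 4-fold. It recovered 89% of these, and 6.81% of its calls were false. Far more genes were called in the data, so the simulation does not measure the error of the calls reported here. Replicates of a line differed by more than sampling noise (chi-square per degree of freedom from 2.21 to 5.62). The methods call the replicates biological.

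The BCL2 family genes and the 5 further lists were chosen with earlier results of these data known. Named in the lists are up to 3 genes with the largest change in each direction among those called with at least 10 CPM in a line, genes that share exons with a family gene, and, for the largest fitted change in each direction (Bik and Bcl2l1), the 2 nearest genes. The fitted value of Bik rests on 0 counts in J110, so it is not shown to be the largest rise. Bax, Bbc3, Hrk, Bnip3, Bnip3l, Casp9, Fadd, Dynll1, Dynll2, Vdac2, Huwe1, Fbxw7, Akt1, Pim2, Rps6ka1, Vdac1, Vdac3, the Ywha genes and the genes without counts were named after their values were seen, as were the motifs and ratios. A gene that the naming rule selects and a detail of the origin of a line are not reported here.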

Additional observations from a re-analysis of the deposited data

How the results depend on the processing

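Over the alternatives to the processing, 113 of 119 counts of genes called stayed within 1.5 times the reported count. With glmTreat, which tests for a fold change above 2, 4 of the BCL2 family genes passed, all higher in SSM3, beside 4272 of all genes, 1 of the caspase and apoptosome genes, 5 of the inhibitor of apoptosis genes and 5 of the partners and modifiers. A filter of 10 counts in every library left 5 of 8 other BCL2 family genes tested called, 1 higher and 4 lower, beside 7288 of 9686 of all genes, since it removes genes with a library under 10 counts, among them Bok. Of the family genes, Bcl2l2 turned to 0.014 and Mcl1 to 0.021 on the log2 fold change scale with library size only, Bcl2l2 to 0.10 without SSM3 replicate 3 and Bid to -0.039 without SSM3 replicate 1, and the main test called none of these 3 genes. With libraries left out, Bcl2l2 ran from -0.32 to 0.10 and Bid from -0.039 to 0.23. Dynll1 turned to 0.021 with library size only. Library size only moved the median over all genes tested from -0.01 to 0.16 in log2 fold change. The calls of Bcl2l11 and Bad held in every alternative, and the log2 fold change of Bcl2l11 ran from 3.63 to 3.97. Bik and Bmf were called wherever they were tested, but a filter of 10 counts in every library removed both. They passed the main filter only through their SSM3 libraries. Higher in SSM3 was thus the only direction open to them, and these calls add no support.

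The labels do not say whether the replicate numbers pair the samples, and so few libraries cannot decide it. Deviations of same-numbered libraries correlated at 0.012, 0.015 and 0.027, each library most with its own number. With the replicate number as a replicate block, 9481 of all genes and 7 of the family genes were called, 5 of them higher. Depth limits Bcl2l2, Bik and Bmf, the family genes with the fewest counts.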
